A study of Mus musculus with 27 samples.

Results

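The comparison was between 3T3-L1 cells that had spent 2 h in a fat cell differentiation mixture and the same cells after 1 h. The means compared came from 6 of the 27 arrays of the series, the 3 arrays of vector cells at 1 h and the 3 at 2 h. All 19938 genes that could be tested were covered. 3T3-L1 is an established mouse preadipocyte line with fibroblast form, and hormones make it accumulate fat. Every cell in the comparison carried the empty pMIG vector, a control for an ISL1 construct used in other groups. Cells were kept for 2 days past confluence and then received medium with 10% fetal calf serum, 350 nM insulin, 0.5 mM isobutylmethylxanthine (IBMX), 250 nM dexamethasone and 400 nM biotin. Both groups had been in that medium, so serum, insulin, IBMX and dexamethasone act in both, and the step shows 1 added hour of exposure and not the effect of any single agent. The other arrays are vector cells at 0, 0.5, 4, 8 and 48 h and cells with Flag-tagged ISL1 at 0 and 48 h, with 3 arrays in each of the 9 groups. According to the series' design, the 3 arrays of each group hold separate biological replicates. Insulin is far above a physiological level in this model, and the values are those of 1 cell line in culture and not of preadipocytes in a tissue.

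Each agent of the mixture acts through a different route. Insulin at this dose also engages the IGF1 receptor and drives growth signalling, IBMX blocks phosphodiesterases so that cAMP builds up, and dexamethasone activates the glucocorticoid receptor, which binds DNA directly. The response comes in waves. Immediate early genes are switched on from transcription factors that are already present, many of their products shut the signal down again, and delayed genes then depend on newly made factors. C/EBPbeta and C/EBPdelta are made early in this line, Pparg and Cebpa, which hold the fat cell state, come days later, and the growth-arrested cells re-enter the cell cycle before they accumulate fat.

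Levels below are log2 intensities and differences are log2(2 h) minus log2(1 h), so that 1 unit is a 2-fold change. Values after ± are standard errors of the limma fit unless SD is named, with n = 3 arrays at each time. A gene is said to have risen or fallen when its adjusted p in that fit, corrected by Benjamini and Hochberg over all genes, was under 0.05. The arrays give no count depth, and their number limits the precision. The middle range of levels (interquartile range) was narrower on 1 array of each time than on its partners: it was 2.97 on 1 h replicate 1 against 3.37 and 3.32, and 3.06 on 2 h replicate 2 against 3.18 and 3.32. The fibroblast character of the cells was checked by marker lists. The median log2 level of 19 preadipocyte and fibroblast markers was 12.5 at both times, against 6.80 and 6.82 for 17 macrophage and blood cell markers, 7.15 and 7.24 for 16 endothelial, 7.32 and 7.36 for 15 epithelial and 7.64 and 7.75 for 20 skeletal muscle markers. Single members overlapped. At 1 h the lowest fibroblast marker was at 6.89. The highest blood cell, skeletal muscle, endothelial and epithelial markers were at 11.98, 10.40, 8.53 and 8.28. Of the markers of these other cell types, Cd14 (by 0.53 ± 0.083), Cd68 (by 0.38 ± 0.080) and Flt1 (by 0.69 ± 0.101) passed the test in this fit, all higher at 2 h, and the other 65 did not; their part in other results was not tested.

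The added hour changed 4133 genes, 20.7% of those tested, in the limma fit. There were 1888 that rose (9.47%) and 2245 that fell (11.3%), with a median log2 difference of 0.40 among the first and -0.39 among the second. After each array was centred on a common median the numbers were 2141 and 1805, so which direction held more genes is not settled. In 3936 of the changed genes all 3 arrays of one time lay beyond the 3 of the other; over all genes such a gap was found upward for 14.6% and downward for 14.5%. At least 2-fold changes were seen for 133 genes that rose (0.667%) and 83 that fell (0.416%). The second of these numbers was 129 without 1 h replicate 1, the narrowest array. At least 4-fold changes were seen for 10 genes that rose and 6 that fell. The shares of 9.47% and 11.3% over all genes are the first background for every list count below. They depended on level. With the genes split by mean level into 3 classes of 6646, 91 rose and 76 fell in the dimmest class. In the middle class 542 rose and 970 fell, and in the brightest 1255 rose and 1199 fell. The brightest class (means from 9.49) is the nearer background for lists of bright genes. Among such lists are those of cholesterol, heat shock and smooth muscle type genes, with median levels of 11.0, 11.4 and 11.7 at 1 h.

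**Figure D1:**
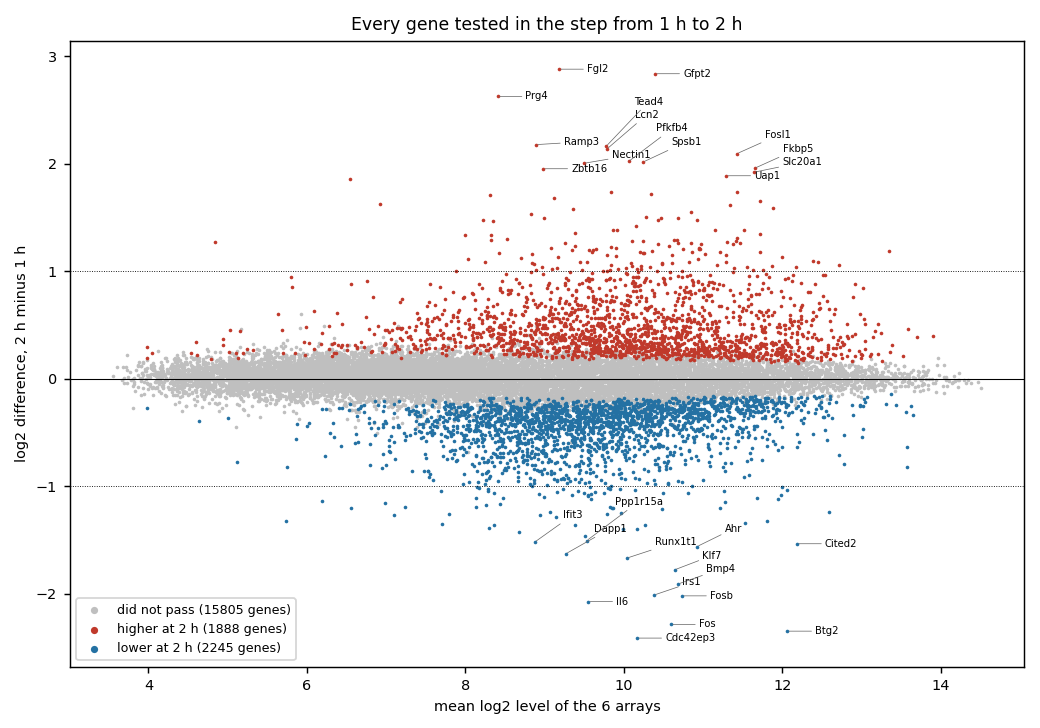
Each point is 1 of 19938 genes; the horizontal axis is its mean log2 level over the 6 arrays and the vertical axis its log2 difference, 2 h minus 1 h, with dotted lines at 2-fold. Red points (1888) rose, blue points (2245) fell and grey points did not pass, and the 14 largest rises and falls are named, from Fgl2 at 2.88 to Cdc42ep3 at -2.41.

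The largest rises belonged to secreted proteins, sugar and phosphate metabolism and a few transcription factors. Fgl2, a secreted fibrinogen-like protein, had log2 levels of 7.47, 7.84 and 7.92 at 1 h and 10.66, 10.53 and 10.68 at 2 h, so it went from the dim side of the array to a clear signal. Its difference was 2.88 ± 0.125 (7.36-fold, limma adjusted p = 5.8e-15). Gfpt2, which makes glucosamine 6-phosphate at the entry of the hexosamine pathway, read 8.89 to 9.05 at 1 h and 11.86, 11.80 and 11.79 at 2 h. Uap1, the last enzyme on the way to UDP-N-acetylglucosamine, read 10.32, 10.31 and 10.43 and then 12.24, 12.31 and 12.17. Both enzymes rose, Gfpt2 by 2.84 ± 0.093 and Uap1 by 1.89 ± 0.075, with no array out of place. Prg4, the joint lubricant lubricin, was at 6.94, 7.38 and 6.96 at 1 h and at 9.89, 9.51 and 9.77 at 2 h, and rose further to a mean of 11.5 at 4 h. Lcn2, which encodes the iron-carrier-binding protein lipocalin 2, rose by 2.14 ± 0.094 from 8.60, 8.75 and 8.80 to 10.87, 10.92 and 10.78.

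Among transcription factors, Tead4, a DNA-binding partner of YAP, showed the flattest start. Its mean log2 levels at 0, 0.5 and 1 h were 8.60, 8.62 and 8.70, and it then read 10.87, 10.83 and 10.88 at 2 h, a rise of 2.16 ± 0.073. Zbtb16, the zinc finger protein PLZF and a glucocorticoid target, had a similar shape, with 8.13, 7.90 and 7.99 at 1 h and 10.04, 9.88 and 9.97 at 2 h. Fosl1, the AP-1 subunit Fra-1, was already moving and rose by 2.09 ± 0.092, from 10.42, 10.31 and 10.42 to 12.55, 12.43 and 12.45. The other large rises were in Ramp3, a partner of the calcitonin receptor family (2.18 ± 0.111), Pfkfb4, which sets the glycolysis regulator fructose 2,6-bisphosphate (2.02 ± 0.092), Spsb1, a SOCS box protein (2.02 ± 0.099), Nectin1, a cell adhesion molecule (2.00 ± 0.070), Fkbp5, a chaperone of the glucocorticoid receptor (1.96 ± 0.068), and Slc20a1, a phosphate importer (1.92 ± 0.087).

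The largest falls were of 2 kinds: genes that the mixture had raised within the preceding hour, and genes that had been high in resting cells. Of the first kind, Btg2, which slows the cell cycle, was at a mean of 9.24 at 0 h, stood at 13.22, 13.25 and 13.25 at 1 h, and was at 10.77, 10.84 and 11.06 at 2 h. It fell by 2.35 ± 0.096 (5.10-fold). Fos fell by 2.29 ± 0.103, from 11.71, 11.88 and 11.63 to 9.58, 9.53 and 9.25, and Fosb by 2.02 ± 0.096, from 11.66, 11.77 and 11.81 to 9.61, 9.72 and 9.85. Both encode AP-1 subunits, and at 2 h both still stood above their 0 h means of 7.65 and 7.89. The cytokine gene Il6 read 10.42, 10.72 and 10.63 at 1 h and 8.48, 8.20 and 8.87 at 2 h. Ppp1r15a, whose product GADD34 lets translation restart under stress, fell by 1.51 ± 0.087, and Cited2, a coactivator-binding protein, by 1.54 ± 0.067.

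Of the second kind, Cdc42ep3, an effector of the small GTPase Cdc42, had the largest fall of all genes. It held a mean of 11.7 at 0 h and 11.6 at 0.5 h, read 11.26, 11.50 and 11.37 at 1 h and then 8.93, 8.79 and 9.17 at 2 h (-2.41 ± 0.120, adjusted p = 6.22e-14). Irs1, which links the insulin receptor to its kinase cascade, read 11.30, 11.47 and 11.40 at 1 h and 9.32, 9.33 and 9.48 at 2 h. Its fall of 2.01 ± 0.085 rests on the brighter of its probe sets; a dim one gave -0.30 and did not pass. Klf7, a zinc finger repressor of fat cell formation, fell by 1.78 ± 0.090, Runx1t1, a corepressor, by 1.67 ± 0.083, Dapp1, an adaptor that binds phosphoinositides, by 1.63 ± 0.112 and Ahr, the dioxin receptor, by 1.56 ± 0.076. Ifit3, an interferon-stimulated gene, fell by 1.52 ± 0.200 with a wide spread at 1 h, where its arrays read 8.93, 10.19 and 9.80.

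**Figure D2:**
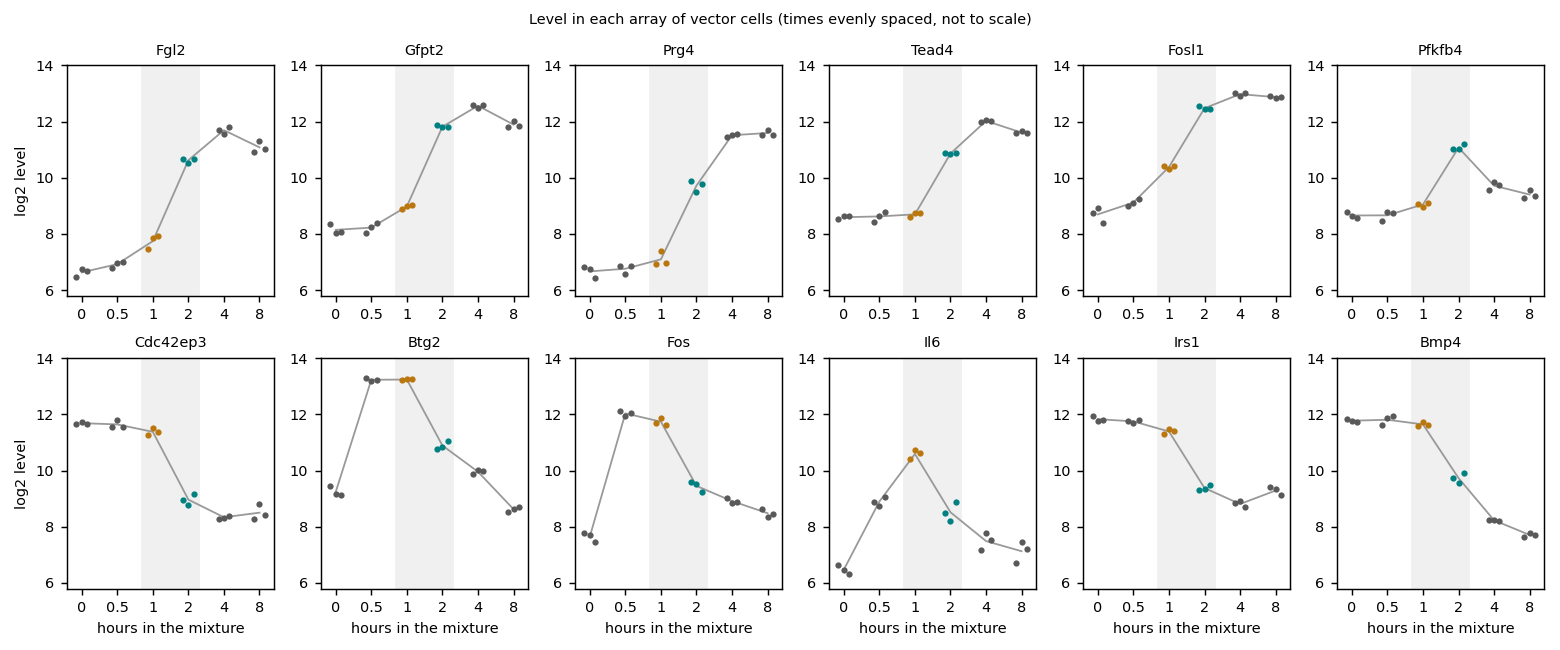
Log2 level (vertical axis) in every vector array of 6 genes with large rises (top) and 6 with large falls (bottom) against hours in the mixture, drawn evenly spaced; lines join group means and the shaded band marks 1 h (orange) and 2 h (teal). Fgl2, Gfpt2, Prg4 and Tead4 differed more between 1 h and 2 h than between 0 h and 1 h, Btg2, Fos and Il6 had risen before they fell, and Cdc42ep3, Irs1 and Bmp4 were high from 0 h to 1 h.

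The genes of the study's title moved in different directions. Isl1, the LIM homeodomain factor, was dim in vector cells and rose by 1.11 ± 0.107 (limma adjusted p = 1.11e-08), from 7.45, 7.35 and 7.64 to 8.65, 8.64 and 8.49. Its mean had been 7.34 at 0 h and 7.36 at 0.5 h, so the 2 h mean was the highest of the 6 times up to 8 h. Bmp4, a ligand that commits stem cells to the fat lineage, read 11.57, 11.73 and 11.63 at 1 h and 9.73, 9.55 and 9.92 at 2 h. The fall of 1.91 ± 0.104 was followed by a mean of 8.23 at 4 h and 7.71 at 8 h. Pparg, the master regulator of fat cells, read 11.68, 11.83 and 11.79 and then 11.54, 11.48 and 11.51, a fall of 0.26 ± 0.060 (adjusted p = 0.00206) that did not pass when only these 6 arrays were fitted. Cebpb rose by 0.25 ± 0.086 (adjusted p = 0.0355) after much larger earlier gains, with means of 9.13 at 0 h, 11.67 at 1 h and 11.92 at 2 h. It did not pass without 1 h replicate 1 or 2 or 2 h replicate 1 or 3 (adjusted p = 0.0829, 0.105, 0.102 and 0.115 in limma) or with only the 6 arrays (0.0594). Cebpd had turned by then and fell by 0.36 ± 0.086, while Cebpa, at 8.92, 8.88 and 8.95 and then 8.67, 8.72 and 8.62, did not pass (-0.24 ± 0.101, adjusted p = 0.0973).

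The immediate early transcription factors were split. Of 30 measured, 14 fell and 9 rose (median log2 difference -0.24), beside 11.3% and 9.47% of all genes and a median of 0.015 over all genes. Fos, Fosb and Fosl1 are described above. Ier2, a small nuclear protein, read 10.67, 10.99 and 10.92 at 1 h and 9.43, 9.37 and 9.59 at 2 h, a fall of 1.39 ± 0.111. Maff, a small Maf factor, went the other way and rose by 0.89 ± 0.139. The phosphatases and Sprouty proteins that damp MAP kinase signalling were also mixed, with 4 of 17 higher and 5 lower, a number that was 3 after median centring and 3 without 1 h replicate 2 or 3 or 2 h replicate 1. Dusp14 rose by 1.15 ± 0.089 and Dusp4, a nuclear ERK phosphatase, by 0.98 ± 0.109, while Spry2 fell by 1.07 ± 0.112 and Spry1 by 0.81 ± 0.100. Of 11 RNA decay factors and growth brakes 4 rose and 4 fell (2 after median centring and 2 without 1 h replicate 2 or 2 h replicate 2): Zfp36, which destabilises AU-rich messages, fell by 0.55 ± 0.082, and Gadd45g and Tob2 rose by 0.58 ± 0.095 and 0.56 ± 0.083.

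Glucocorticoid targets rose more often than they fell. Of 29 measured, 12 rose (41.4%) and 6 fell (20.7%), with a median of 0.11, or 0.06 without 2 h replicate 2. Besides Lcn2, Fkbp5 and Zbtb16, the Ras-like gene Rasd1 rose by 1.57 ± 0.103, from 8.40, 8.66 and 8.63 to 10.16, 10.04 and 10.22. Against them, Angptl4, a secreted inhibitor of lipoprotein lipase, fell by 0.99 ± 0.091, and Nr3c1, the glucocorticoid receptor itself, by 0.58 ± 0.091. Of 29 cAMP feedback and CREB target genes 7 rose (24.1%) and 5 fell (17.2%), with a median of 0.05. The cAMP-degrading phosphodiesterase genes Pde4d and Pde4b rose by 1.03 ± 0.070 and 0.76 ± 0.095, the kinase gene Sik2 by 1.01 ± 0.059, and the prostaglandin E receptor gene Ptger4 fell by 0.76 ± 0.087. Ppargc1a, the coactivator PGC-1alpha and a CREB target, fell by 0.46 ± 0.103. For Pde4d a further probe set rose (1.42) and another, dimmer, gave 0.01.

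The clock genes changed in a large share, in both directions. Of 20 measured, 8 rose and 8 fell (40% each), with a median of 0.12, or 0.06 without 1 h replicate 2. Per2, a repressor of the clock that responds to glucocorticoid and cAMP, rose by 0.94 ± 0.074, and Bhlhe41 (DEC2) by 1.26 ± 0.121. Nr1d1, the repressor REV-ERBalpha, fell by 1.36 ± 0.083, from 10.70, 11.17 and 10.97 to 9.51, 9.60 and 9.65, and Dbp, an output activator, by 1.21 ± 0.086. In insulin and IGF signalling 7 of 39 rose (17.9%) and 8 fell (20.5%), with a median of -0.02. The number that fell was 4 without 2 h replicate 2 and 5 without 1 h replicate 2 or 3. The list is bright, with a median level of 10.8 at 1 h. Of the 6646 brightest genes tested 1255 rose and 1199 fell, so both shares of the list are near those of bright genes. Beside Irs1, Pik3r3, a regulatory subunit of PI 3-kinase, fell by 0.87 ± 0.109. Foxo3, a transcription factor that insulin holds out of the nucleus, rose by 0.82 ± 0.080, and Socs3, a feedback inhibitor of cytokine and insulin receptors, by 0.76 ± 0.074; a dimmer Socs3 probe set gave 0.01 and did not pass.

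In the interleukin-6 family the best-known ligand fell while its receptor and other ligands rose. Of 21 genes 8 rose (38.1%) and 3 fell (14.3%), with a median of 0.13. Il6ra, the receptor subunit that binds IL-6, read 9.50, 9.55 and 9.52 at 1 h and 11.10, 10.99 and 11.00 at 2 h, a rise of 1.51 ± 0.072, opposite to Il6 (-2.07 ± 0.176). The family ligands Il11 and Clcf1 rose by 1.33 ± 0.093 and 1.27 ± 0.082, and Socs5 fell by 0.85 ± 0.088. Of 18 chemokine genes 2 rose and 2 fell (11.1% each, median 0.06), near the shares of all genes (9.47% and 11.3%). Cxcl1 fell by 0.65 ± 0.126 and Ccl7 by 0.32 ± 0.081, both from levels raised since 0 h, and Cx3cl1 and the scavenger receptor gene Ackr3 rose by 0.52 ± 0.070 and 0.61 ± 0.089.

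Of 19 NF-kB subunits, inhibitors and feedback genes 3 rose (15.8%) and 7 fell (36.8%), and 1 rose with only the 6 arrays. The median was -0.13, or -0.20 without 2 h replicate 1. Tnfaip3, the ubiquitin editor A20, fell by 0.92 ± 0.085, and Irf1 by 1.19 ± 0.106 on its brighter probe set (0.01 on the other), while Bcl3 and Rel rose by 0.60 ± 0.064 and 0.50 ± 0.116. In the prostaglandin list 2 of 19 rose and 5 fell (median 0.03). After a further quantile normalization 5 rose and 5 fell, without the 48 h arrays 4 rose and 5 fell, and with only the 6 arrays in the fit 2 rose and 3 fell. Ptgs2, the inducible cyclooxygenase, was among the brightest genes at 13.95, 13.97 and 14.02 at 1 h and fell by 0.82 ± 0.104 to 13.15, 13.11 and 13.22. Ptges, the next enzyme towards prostaglandin E2, rose by 0.42 ± 0.069 and the phospholipase gene Pla2g4a by 0.39 ± 0.097, and the prostacyclin receptor gene Ptgir fell by 0.40 ± 0.085.

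Interferon-stimulated genes fell as a group in number: 14 of 35 fell and 2 rose (median -0.35). Ifit3 led, followed by Irf1, Trim30d (-1.06 ± 0.164) and the GTPase gene Irgm1, which read 8.19, 8.82 and 8.57 and then 7.52, 7.31 and 7.84 (-0.97 ± 0.136). Trim25 and Isg20 rose by 0.80 ± 0.100 and 0.39 ± 0.094. Every member named here read lowest of the 1 h arrays on the narrow replicate 1. The number that fell was 20 without 1 h replicate 1, 9 without 1 h replicate 2 and 8 with only the 6 arrays in the fit. The median was -0.52 without 1 h replicate 1 and -0.19 without 1 h replicate 2.

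The listed transcription factors of fat cell formation fell more often than they rose, and so did the genes listed as its repressors. Of 26 C/EBP, PPAR and other adipogenic transcription factors 13 fell (50%) and 3 rose (11.5%), with a median of -0.25. The list does not separate drivers from inhibitors. Klf6 read 12.04, 12.29 and 12.26 and then 10.84, 10.78 and 10.93 (-1.35 ± 0.079), Egr2 (Krox20) fell by 1.12 ± 0.113 from an induced level, and Ddit3 (CHOP) by 0.66 ± 0.084. Klf5 rose by 1.01 ± 0.094, from 11.08, 11.12 and 11.18 to 12.15, 12.05 and 12.21, and Ppard by 0.57 ± 0.054. Of 28 genes on the repressor list 14 fell (50%) and 4 rose (14.3%), with a median of -0.20. Besides Klf7, the repressors Klf2, Klf3 and Id3 fell by 1.36 ± 0.094, 0.98 ± 0.071 and 0.91 ± 0.076. Tle3 and Foxo1, also on that list, rose by 0.84 ± 0.065 and 0.61 ± 0.081. What a listed gene does in these cells was not tested, and a place on the list does not show that it represses.

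Of 31 genes of mature fat cells 5 rose (16.1%) and 3 fell (9.68%), beside 9.47% and 11.3% of all genes, with a median of 0.02. Their median level was 10.6 at 1 h. Of the 6646 brightest genes tested (means from 9.49) 1255 rose and 1199 fell, so neither share of the list is above that of bright genes. The 3 largest rises of the list were in enzymes of fat synthesis, Dgat1 by 0.95 ± 0.085, Lpin1 by 0.89 ± 0.091 and Fasn by 0.47 ± 0.079. The lipid droplet coat gene Plin2 fell by 0.47 ± 0.081 and the lipase gene Lipe by 0.28 ± 0.084; Lipe did not pass without 1 h replicate 2 or 3 or 2 h replicate 1 (limma adjusted p of 0.0575 to 0.0881). In cholesterol synthesis and sterol balance 3 of 25 rose (12%) and 6 fell (24%), with a median of -0.07. The number that fell was 10 without 1 h replicate 1 and 10 after a further quantile normalization. Pmvk and Hsd17b7, enzymes of the pathway, rose by 1.28 ± 0.077 and 0.88 ± 0.066 and Mylip, which degrades the LDL receptor, by 0.62 ± 0.073, while Fdft1 (squalene synthase) fell by 0.56 ± 0.085.

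Of 28 BMP ligands, receptors and antagonists 5 rose (17.9%) and 3 fell (10.7%), beside 9.47% and 11.3% of all genes (median 0.06). The decoy receptor gene Bambi and the antagonist gene Nbl1 rose by 0.92 ± 0.073 and 0.90 ± 0.078, against falls of Bmp4 and the receptor gene Acvr2a (-0.56 ± 0.075). Of 20 Id and Smad feedback genes 8 rose and 5 fell (median 0.07), among them the inhibitory Smad6 (0.92 ± 0.099) and the Smad corepressor gene Skil (0.89 ± 0.105) among the rises and Id3 and Hey1 (-0.76 ± 0.103) among the falls. The number that rose was 5 without both narrow arrays. In the Wnt list 2 of 38 rose (5.26%) and 10 fell (26.3%), with a median of -0.04. The ligand genes Wnt4 and Wnt5a rose by 0.93 ± 0.096 and 0.29 ± 0.073. Another Wnt4 probe set, nearly as bright, rose less, by 0.39 ± 0.096. The receptor genes Fzd8 and Fzd7 fell by 0.72 ± 0.085 and 0.70 ± 0.086, and the secreted enhancer gene Rspo2 by 0.74 ± 0.096.

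In the Notch list 3 of 23 rose (13%) and 8 fell (34.8%), with a median of 0.01. The ligand gene Jag1 fell by 0.75 ± 0.071 and Rbpj, its nuclear effector, by 0.49 ± 0.063. Lfng, which glycosylates Notch, and Notch2 rose by 0.44 ± 0.085 and 0.35 ± 0.095. The number that rose was 1 without 1 h replicate 1, where the limma adjusted p of Notch2 was 0.0608. A second, dim Rbpj probe set gave 0.10 and did not pass. Of 37 Hox genes 13 fell (35.1%) and 0 rose. The median was -0.12, with -0.20 without 2 h replicate 2 and -0.06 without 2 h replicate 3 as the extremes. Hoxa2 read 10.81, 11.05 and 11.04 and then 10.26, 10.19 and 10.34 (-0.71 ± 0.071), and Hoxc13, Hoxc9 and Hoxa6 fell by 0.78 ± 0.097, 0.55 ± 0.080 and 0.55 ± 0.089. Of 37 secreted growth factors and ligands 8 rose and 10 fell (median 0.00), led upward by Ereg, an EGF receptor ligand (1.27 ± 0.101), and by Fgf2 (0.90 ± 0.088).

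Mitosis genes dropped in this hour. Of 40 measured, 30 fell and 0 rose, beside 11.3% of all genes that fell, and the median difference was -0.60. Plk1, the kinase that drives entry into and passage through mitosis, read 10.64, 10.70 and 10.73 at 1 h and 9.24, 9.16 and 9.47 at 2 h (-1.40 ± 0.089, adjusted p = 6.74e-12). The motor protein genes Kif20b, Kif18a and Kif2c fell by 1.36 ± 0.141, 1.26 ± 0.160 and 1.24 ± 0.113. The median of the list was -0.06 in the step before and 0.03 in the step after. In 8 h against 4 h, which uses none of these arrays, the median of the same genes was 0.33. Bulk RNA does not tell fewer cells in mitosis from less of each message per cell. Across all the alternatives tried, between 27 and 34 members fell.

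The promoters of these genes were described by motifs chosen with these results known. Members that fell were not set apart from those that did not, so the shares describe the list and not the fall. RefSeq promoters (GRCm38.p6, 250 bases before to 50 after the start) were found for 34 of the 40 genes, 37 promoters in all, and were searched on both strands for the CCAAT box (CCAAT) and the cell cycle homology region or CHR (TTTGAA), which do not overlap each other. CCAAT was present in 29 of 37 (78.4%) against 37.4% of the promoters of all genes tested, and TTTGAA in 27 of 37 (73.0%) against 14.8%. Part of the sequence before the start site is given below for 5 of them in the 5′ to 3′ direction of the gene, with the matched letters in capitals. Bases after the start are not shown, and a stretch need not hold every match of its promoter. Those of Plk1 and Kif2c hold 1 match each. Ect2 has another promoter that is not shown. Cdc20, the activator of the anaphase-promoting complex (-1.08), and Ect2, which starts cleavage of the cell (-1.07), were chosen after their values were seen. Kif2c carries the CHR letters on the opposite strand.
Plk1, chr7:122159406-122159434, + strand: tttaaatccccgcggCCAATcagcaacgc
Cdc20, chr4:118437344-118437411, - strand: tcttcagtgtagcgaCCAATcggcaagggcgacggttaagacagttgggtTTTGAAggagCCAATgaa
Aurka, chr2:172370571-172370636, - strand: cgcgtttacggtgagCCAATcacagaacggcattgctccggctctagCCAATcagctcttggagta
Kif2c, chr4:117178855-117178890, - strand: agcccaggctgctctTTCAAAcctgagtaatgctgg
Ect2, chr3:27153914-27154007, - strand: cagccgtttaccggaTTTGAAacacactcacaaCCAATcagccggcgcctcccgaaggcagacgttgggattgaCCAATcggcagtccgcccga
The stretches of Plk1, Cdc20 and Aurka end at the start site, that of Ect2 lies 35 bases before it and that of Kif2c 82 bases. A match of letters is a description and shows no bound factor.

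DNA replication genes followed with smaller falls. Of 37 measured 19 fell and 3 rose (median -0.25). The clamp loader gene Rfc3 read 9.95, 10.24 and 10.11 and then 9.23, 9.06 and 9.28 (-0.91 ± 0.101), and Gins3, Pole2 and Rfc1 fell by 0.76 ± 0.110, 0.69 ± 0.109 and 0.56 ± 0.083. Fen1, the flap endonuclease gene, and Rrm2, a ribonucleotide reductase subunit gene, rose by 0.55 ± 0.093 and 0.32 ± 0.075. The list's median was -0.20 from 2 h to 4 h and 0.44 from 4 h to 8 h. Of 33 Myc, cyclin and cell cycle inhibitor genes 3 rose (9.09%) and 11 fell (33.3%), with a median of -0.07. Myc rose by 0.38 ± 0.079 to 12.82, 12.85 and 12.81, and Cdk6 by 0.36 ± 0.074. The repressors E2f8 and E2f7 fell by 0.78 ± 0.118 and 0.46 ± 0.077, the inhibitor gene Cdkn2b by 0.76 ± 0.074 and the pocket protein gene Rbl1 by 0.54 ± 0.131.

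Ribosome biogenesis moved the opposite way in the same hour. Of 45 genes for ribosome assembly and RNA polymerase I, 32 rose and 1 fell (median 0.46), beside 9.47% of all genes that rose. Nop56, a core protein of the snoRNPs that modify ribosomal RNA, read 11.74, 11.85 and 11.92 and then 12.92, 12.99 and 12.89 (1.10 ± 0.062). Rrp1b read 9.55, 9.93 and 9.92 and then 11.15, 10.96 and 11.07 (1.25 ± 0.084), and Tsr1, which matures the small subunit, rose by 1.14 ± 0.099. Rrs1 had the largest rise (1.46 ± 0.183) but also the widest spread, with 7.06 on 1 h replicate 1 against 7.87 and 7.91. The exception was Imp3, which fell by 0.21 ± 0.070 (adjusted p = 0.0305) and passed in only 1 of the 6 fits without 1 array, with limma adjusted p up to 0.131 without 2 h replicate 2. The list's median was -0.01 in the step before and 0.72 in the step after, and between 26 and 35 members rose across the alternatives tried.

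**Figure D3:**
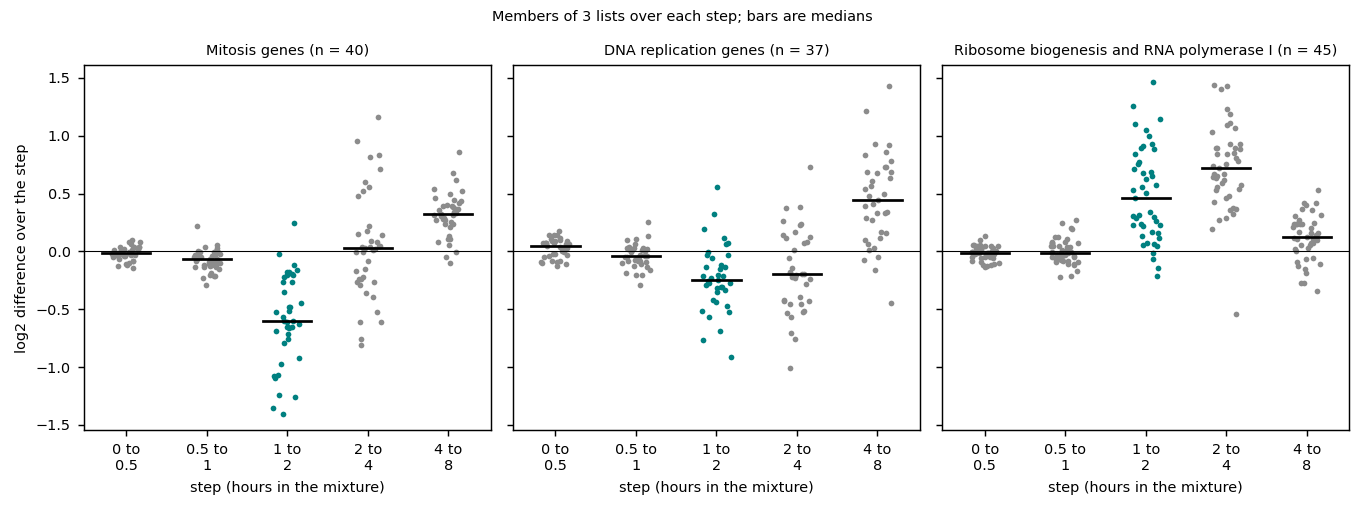
Log2 difference (vertical axis) of each member of 3 gene lists over 5 successive steps of the time course (horizontal axis, hours), with the step from 1 h to 2 h in teal and bars at the medians. The medians of the 1 h to 2 h step are -0.60 for 40 mitosis genes, -0.25 for 37 DNA replication genes and 0.46 for 45 ribosome biogenesis genes, and all 3 are near 0 in both earlier steps; neighbouring steps share arrays.

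The E-box letters CACGTG, which Myc and related factors recognise, were present in 10 of 47 ribosome biogenesis promoters (21.3%), for 39 of the 45 genes, against 8.24% of the promoters of all genes tested. They were also in 13 of 86 promoters of genes that fell at least 2-fold (15.1%), 15 of 136 of those that rose at least 2-fold (11.0%) and 4 of 30 of the immediate early list (13.3%). Nop2, an rRNA methyltransferase gene chosen after values were seen, has the letters in a stretch that ends 39 bases before its start.
Nop2, chr6:125131808-125131843, + strand: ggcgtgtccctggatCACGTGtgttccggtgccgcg
Also searched were the cAMP response element or CRE, with the letters TGACGTCA, the AP-1 site, with the letters TGANTCA, and the box with the letters TATAAA. No motif searched contains another. CRE letters were in 6 of 86 promoters of genes that fell at least 2-fold (6.98%), 5 of 136 of those that rose at least 2-fold (3.68%) and 2.37% of all tested. AP-1 letters were in 6.98%, 8.09% and 6.90%, and TATAAA in 8.14%, 4.41% and 11.5%. Btg2, the largest fall among induced genes, has the CRE letters in a stretch that ends 143 bases before its start, and Fgl2, the largest rise, has AP-1 letters in a stretch that ends at the start.
Btg2, chr1:134079299-134079336, - strand: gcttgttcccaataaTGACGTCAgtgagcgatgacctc
Fgl2, chr5:21372642-21372672, + strand: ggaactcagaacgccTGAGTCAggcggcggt

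The ribosomal protein genes themselves were nearly still. Of 34 measured 2 rose (Rpl30 by 0.33 ± 0.101 and Rpl13 by 0.21 ± 0.064) and 0 fell, with a median of 0.02 at levels near the top of the array (median 12.7), and neither rise held when only the 6 arrays were fitted or 1 h replicate 1 or 2 h replicate 3 was left out; with all probe sets, 7 probe sets rose. Of 25 heat shock chaperone genes 7 rose (28%) and 4 fell (16%), with a median of 0.04. With all probe sets, 12 probe sets rose and the median was 0.12, and without 1 h replicate 3 it was 0.09. The cochaperone gene Bag3 read 12.15, 12.16 and 12.26 and then 13.19, 13.32 and 13.24 (1.06 ± 0.062), and Hspb1 and Hsph1 rose by 1.07 ± 0.093 and 0.96 ± 0.070. Dnajb1 and the heat shock factor gene Hsf2 fell by 0.54 ± 0.103 and 0.33 ± 0.096. Hsf2 did not pass after median centring (limma adjusted p = 0.0512), with only the 6 arrays (0.0573) or without 1 h replicate 2 or 3 or 2 h replicate 2 (0.0748 to 0.0789). The number that fell was 1 in each of these fits and 2 without 2 h replicate 1.

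Of 29 glutathione and antioxidant genes 8 rose (27.6%) and 3 fell (10.3%), with a median of 0.00. The number that fell was 1 without 1 h replicate 2 and 5 after a further quantile normalization. Gclc, the limiting enzyme of glutathione synthesis, had the largest change, from 11.13, 10.96 and 11.18 to 12.67, 12.69 and 12.67 (1.59 ± 0.074). Srxn1 and Mafg rose by 0.95 ± 0.075 and 0.90 ± 0.077, and Keap1, the inhibitor of the antioxidant factor NRF2, and Osgin1 fell by 0.35 ± 0.112 and 0.28 ± 0.074. Keap1 did not pass without 1 h replicate 2 or 3 or 2 h replicate 1 or 3 (limma adjusted p of 0.102 to 0.147). In the ATF4 amino acid response 8 of 30 rose (26.7%) and 7 fell (23.3%), with a median of 0.04. Mthfd2 and the cystine importer gene Slc7a11 each rose, by 0.59 ± 0.078 and 0.59 ± 0.136, and Chac1, which degrades glutathione, fell by 0.97 ± 0.113.

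**Figure D4:**
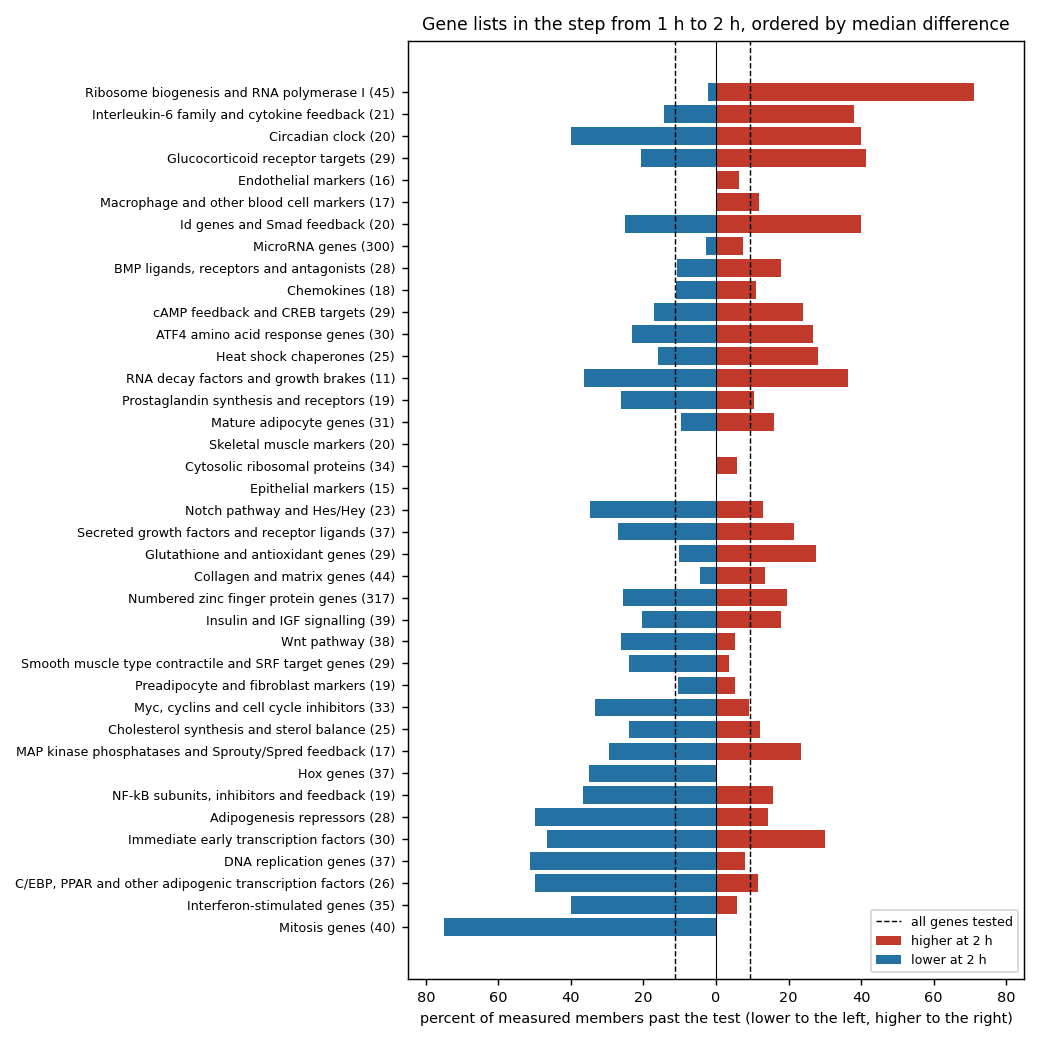
Share of the measured members of 39 gene lists (number in brackets) that rose (red, to the right) or fell (blue, to the left), in percent, ordered by the list's median difference; dashed lines mark the shares over all genes tested, 9.47% and 11.3%. Ribosome biogenesis (32 of 45 rose) and mitosis (30 of 40 fell) stand at the ends.

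Of 44 collagen and matrix genes 6 rose (13.6%) and 2 fell (4.55%), beside 9.47% and 11.3% of all genes (median 0.00). The list is bright, with a median level of 12.3 at 1 h. Of the 6646 brightest genes tested (means from 9.49) 1255 rose and 1199 fell, so 13.6% is not above the share of bright genes that rose. Lamc1, Timp1 and Col4a2 were higher by 0.59 ± 0.087, 0.54 ± 0.087 and 0.46 ± 0.093. Lama4 and the aggrecanase gene Adamts5 were lower by 0.52 ± 0.082 and 0.35 ± 0.101. Adamts5 did not pass without 1 h replicate 3 or 2 h replicate 2 (limma adjusted p = 0.0543 and 0.0627), so that 1 gene fell in those fits. Of 29 smooth muscle type and SRF target genes 1 rose (Smtn, 0.36 ± 0.064) and 7 fell (24.1%; 3 genes with only the 6 arrays; median -0.04), with falls of 0.97 ± 0.103 for Fhl2, 0.75 ± 0.101 for Ankrd1, 0.64 ± 0.078 for Ccn1 and 0.43 ± 0.117 for Ccn2, which did not pass without 1 h replicate 2 or 2 h replicate 2 (limma adjusted p = 0.0624 and 0.052). Of 19 preadipocyte and fibroblast markers Cd44 rose by 0.53 ± 0.062 and Pdgfra (by 0.52 ± 0.059) and Pdgfrb (by 0.31 ± 0.073), the receptors for PDGF, fell. Of 317 numbered zinc finger protein genes 62 rose (19.6%) and 81 fell (25.6%), beside 9.47% and 11.3% of all genes, and the median was -0.02. Zfp52 read 8.47, 8.91 and 8.91 and then 10.09, 9.82 and 10.07 (1.23 ± 0.130), and Zfp438 fell by 1.11 ± 0.097.

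MicroRNA genes were measured by probe sets on the gene or its precursor, so mature microRNAs were not measured. Of 300 such genes 22 rose (7.33%) and 8 fell (2.67%), beside 9.47% and 11.3% of all genes. They are dim, with a median level of 6.39 at 1 h, and of the 6646 dimmest genes tested (means up to 7.30) 91 rose and 76 fell. The list's median difference was 0.07, and it was 0.03 without 1 h replicate 2 and 0.03 without 2 h replicate 2. RefSeq's sequence table held 271 of the 300 symbols. The largest changes lay in a pair of clusters. The miR-17-92 cluster on chromosome 14, known for driving proliferation and a target of Myc, rose in each of its probe sets named below. Not every gene of the cluster is given. The gene for miR-92a is not among those named, so the cluster as a whole is not described. For each member named below 1 mature product is shown, with the seed (bases 2 to 8, the part that pairs with targets) in capitals. The products not shown, such as miR-17-3p, carry other seeds. miR-17-5p and miR-20a-5p share a seed, as do miR-19a-3p and miR-19b-3p. The positions are of the mature microRNA on GRCm38.p6, + strand.
miR-17-5p, chr14:115043684-115043706: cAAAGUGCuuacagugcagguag
miR-18a-5p, chr14:115043867-115043889: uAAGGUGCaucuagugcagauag
miR-19a-3p, chr14:115044048-115044070: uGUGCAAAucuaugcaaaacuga
miR-20a-5p, chr14:115044183-115044205: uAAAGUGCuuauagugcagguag
miR-19b-3p, chr14:115044358-115044380: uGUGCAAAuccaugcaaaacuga
The cluster that fell lies on chromosome 16 and makes miR-99a and let-7c, of which let-7 microRNAs are known to hold back proliferation.
miR-99a-5p, chr16:77598940-77598961: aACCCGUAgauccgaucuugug
let-7c-5p, chr16:77599672-77599693: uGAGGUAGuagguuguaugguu

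In the miR-17-92 cluster, Mir18 read 5.47, 5.75 and 5.63 at 1 h and 7.32, 7.37 and 7.73 at 2 h, a rise of 1.86 ± 0.200 (limma adjusted p = 7.27e-08). Mir19a read 4.13, 4.07 and 4.42 and then 5.50, 5.26 and 5.67 (1.27 ± 0.229). No array of 2 h reached down to those of 1 h in either. The other members given here and the host transcript, named after their values were seen, also rose. Mir19b-1 rose by 0.95 ± 0.175, Mir20a by 0.60 ± 0.159, Mir17 by 0.48 ± 0.087 and Mir17hg by 0.72 ± 0.132. All are dim, and the 5 microRNA probe sets had means under 6 at 1 h. On chromosome 16, Mir99a read 7.63, 7.90 and 7.98 and then 6.42, 6.79 and 6.71 (-1.20 ± 0.135), and Mirlet7c-1 read 6.42, 6.91 and 6.94 and then 5.82, 5.36 and 5.68 (-1.14 ± 0.190). Their host transcript Mir99ahg, named after its values were seen, fell by 0.67 ± 0.138; of its 4 probe sets 3 fell and 1 gave 0.03.

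**Figure D5:**
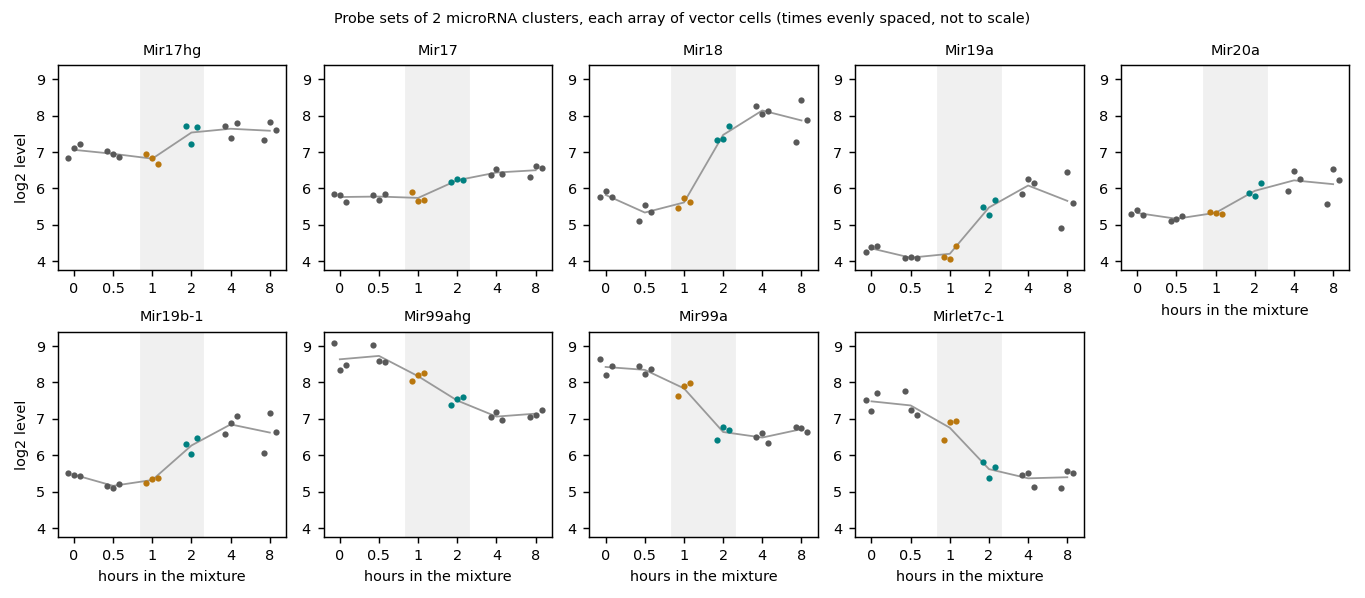
Log2 level (vertical axis) in every vector array against hours in the mixture, drawn evenly spaced. Lines run through group means, with 1 h and 2 h in orange and teal. Shown are the named probe sets of the miR-17-92 cluster (Mir17hg to Mir19b-1, without miR-92a) and of the miR-99a and let-7c cluster (Mir99ahg, Mir99a, Mirlet7c-1). The 2 h arrays of Mir18 (7.32 to 7.73) lie above all its 1 h arrays (5.47 to 5.75), and those of Mir99a (6.42 to 6.79) lie below its 1 h arrays (7.63 to 7.98).

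The step was then set against its neighbours by testing the difference of the steps in the same fit. Each neighbour shares 3 arrays with the step, and the intervals differ in length. By itself the step before changed 3.60% of genes (1.84% up, 1.77% down) and the step after 28.0% (13.7% up, 14.2% down). Against the step from 0.5 h to 1 h, 1296 genes differed (6.50%), 717 upward (3.60%) and 579 downward (2.90%). The number was 1967 after a further quantile normalization and 824 with only the arrays of these times. The largest downward differences were in genes whose rise between 0.5 h and 1 h stopped, slowed or turned. Il6 had the largest, at -3.77: it rose by 1.69 in the step before and fell by 2.07 in this one. Nr4a3, an orphan nuclear receptor gene, still rose (from 11.42, 11.61 and 11.56 to 12.14, 12.05 and 12.15) but far less than before (-2.65). Nr4a2 and Csrnp1 fell by 0.41 ± 0.088 and 0.79 ± 0.114, with differences between steps of -2.47 and -2.76, and those of Fosb and Egr2 were -2.85 and -2.37. The largest upward differences were in Prg4 (2.29), Zfp39 (2.12), Tead4 (2.09), Gfpt2 (2.08), Fgl2 (2.06) and Mir145a (2.01). Zfp39 dipped to 8.33 at 1 h from 9.38 at 0.5 h and was back at 9.40 at 2 h. Mir145a did not pass between 1 h and 2 h (0.20 ± 0.115, adjusted p = 0.27), and its difference comes from a mean of 11.4 at 0.5 h against 9.56 at 1 h.

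Against the step from 2 h to 4 h, 2636 genes differed (13.2%). The step after was higher than this one for 1409 (7.07%) and lower for 1227 (6.15%). The largest of the second kind were in genes that rose by 2 h and then turned. Pfkfb4 read 9.07, 8.96 and 9.12 at 1 h, 11.01, 11.01 and 11.19 at 2 h and a mean of 9.72 at 4 h, with a difference between steps of -3.38 (adjusted p = 1.98e-13). The deubiquitinase gene Usp2 (-2.65), Zswim6 (-2.71), Bhlhe41 (-2.75), Nr4a3 (-2.63) and Slc20a1 (-2.18) shared that form, with the 2 h mean the highest of the times up to 8 h in each. The largest of the first kind were in genes that fell by 2 h and then came back, 4 of them mitotic: Plk1 (2.35), Kif18b (2.29), the kinase gene Aurka (2.13) and Kif20b (2.07), with the DNA damage clamp gene Rad1 (2.00) and Zfp442 (1.93). Aurka read 9.64, 9.85 and 9.81 at 1 h and 8.78, 8.71 and 8.90 at 2 h, and its mean was 9.96 at 4 h, against 10.0 at 0 h. Kif18b fell by 1.29 ± 0.096 and Rad1 by 1.02 ± 0.149, both with 2 h the lowest of these times. Of the 40 mitosis genes 18 were higher and 2 lower in the step after than in this one.

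Comparisons that share no array with the step describe where its genes stood at other times. In 8 h against 4 h, 4767 genes differed (23.9%), of which 2725 rose (13.7%) and 2042 fell (10.2%). Of the 2245 genes that fell from 1 h to 2 h, 951 rose from 4 h to 8 h, which is 42.4% of the first list and 34.9% of the second, and 187 (8.33%) fell again. Of the 1888 that rose, 564 fell from 4 h to 8 h (29.9%, and 27.6% of the second list) and 250 rose (13.2%). In 0.5 h against 0 h, 255 genes differed (1.28%): 155 rose (0.777%) and 100 fell (0.502%). Of those 155, 53 rose further from 1 h to 2 h (34.2%) and 47 fell (30.3%), and of the 100, 28 rose and 9 fell. In ISL1 against vector cells at 0 h, 5119 genes differed (25.7%): 3047 were higher (15.3%) and 2072 lower (10.4%). Of the higher genes, 515 rose (16.9%) and 618 fell (20.3%) between 1 h and 2 h, and of the lower genes, 348 rose (16.8%) and 420 fell (20.3%). These stand beside 9.47% and 11.3% of all genes. The shares of both lists were nearly the same, so they show no common direction with the step. Single genes went either way: Bmp4 was lower in ISL1 cells by 3.55 at 0 h and fell by 1.91 here, while Plk1 was higher by 1.36 and fell by 1.40.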

How the data were processed

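Total RNA was measured on 27 Affymetrix mouse gene arrays, 1 per sample. The authors deposited log2 expression values made with RMA, per the submitters' processing notes; the sources used here give no software, version or genome build, and the log base was settled from the values (3.35 to 14.85). The deposited values were used as they are, so RMA's between-array scaling is part of every difference. Of 28853 probe sets, 21789 had 1 gene symbol, 1621 several and 5443 none in the platform's gene table. The first kind was used, 21698 of them matched to RefSeq GRCm38.p6 symbols. For 999 genes with several probe sets the brightest was kept, which left 19938 genes, with no filter on dim genes. Groups came from construct and time in the sample labels, and 0 table columns belonged to no sample.

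The limma 3.58.1 model (R 4.3.3) had a mean for each group over the 27 arrays, with 18 residual and 6.56 prior degrees of freedom, two-sided, adjusted by Benjamini and Hochberg over 19938 genes in each comparison. The threshold was an adjusted p of 0.05, with 2-fold counts beside it, and the fit was tested on simulated data. The 6 study genes (Isl1, Bmp4, Pparg, Cebpa, Cebpb, Cebpd) were always named. Added were the 14 largest rises and 14 largest falls with arrays that do not overlap, and of each of 39 lists the 4 largest changes and the 2 largest against the majority. The 6 largest differences each way against the step before and the step after completed the rule. The comparison, the lists (1695 entries, 1630 measured, 1560 distinct genes) and the rule were chosen with earlier results of these data known, so list counts are descriptions. Lists share genes. The motifs and the genes whose promoters are shown were also chosen with these results known.

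Alternatives were median centring, a further quantile normalization, only the arrays compared, leaving out the 48 h arrays (whose Isl1 signal goes against their labels), a replicate block, leaving out genes with a mean under 6, all probe sets, a trended and robust variance, an adjusted p of 0.01 and leaving out each array in turn. Leaving out both arrays of narrow spread was added after seeing the data.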

Additional observations from a re-analysis of the deposited data

How the results depend on the processing

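All 216 genes changed at least 2-fold kept their call and direction under 14 alternatives (214 when dim genes were left out), and 0 of the 4133 changed genes were called in the opposite direction under these. All probe sets and an adjusted p of 0.01 are not among the 14; with all its probe sets Irs1, 1 of the 216, gave -1.16 (limma adjusted p = 0.0612). The 4133 genes became 3946 after median centring, 5013 after a further quantile normalization, 2788 with only the arrays compared, 4243 without the 48 h arrays and 3043 at an adjusted p of 0.01. Genes that fell, 2245, became 1493 with only the arrays compared. Genes whose step differed from the step before, 1296, became 1967 after a further quantile normalization and 824 with only the arrays compared; in the latter fit residual degrees of freedom are fewer. Leaving out 1 array gave 3443 to 4450 genes changed, 1632 to 1797 that rose, 1664 to 2767 that fell, 108 to 148 that rose at least 2-fold and 62 to 129 that fell at least 2-fold, the 129 without 1 h replicate 1. Without both narrow arrays there were 3633 (1437 rose, 2196 fell), and 103 fell at least 2-fold. Same-numbered arrays did not regularly deviate together (correlations of -0.03, -0.52 and 0.42 across genes), so the numbers are not taken as pairs. Arrays with unlike numbers ranged from -0.61 (1 h replicate 1 with 2 h replicate 3) to 0.56 (1 h replicate 1 with 2 h replicate 2, the narrow arrays). Deviations shared across genes are thus present. A replicate block gave 4097 genes (1860 rose, 2237 fell). Of 197 results on named genes 18 lost the call somewhere (Adamts5, Ccn2, Cebpb, Hsf2, Imp3, Irs1 with all its probe sets, Keap1, Lipe, Notch2, Osgin1, Pparg, Rel, Rpl13, Rpl30, Slc2a1, Socs3 with all its probe sets, Wnt5a and Zfp442), 2 gained one and 0 reversed. Of 117 counts and medians of gene lists 29 moved under some alternative. The causes were not tested. Signal over background was not tested, and differences of dim genes are compressed.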

Other observations

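Sugar metabolism was not among the lists, and the genes in this paragraph without a place in the naming rule (Hk2, Pfkfb3, Gfpt1, Gnpnat1, Pgm3, Hk1 and Slc2a1) were chosen after their values were seen. Hk2, the inducible hexokinase, had log2 levels of 9.28, 9.54 and 9.64 at 1 h and 11.20, 11.19 and 11.24 at 2 h, a rise of 1.72 ± 0.097 in the limma fit. Hk1, the constant form, stood at 13.68, 13.56 and 13.52 and then 13.54, 13.53 and 13.48 and did not pass (-0.07 ± 0.072, limma adjusted p = 0.637). Pfkfb3 and Pfkfb4, both of which make fructose 2,6-bisphosphate, rose by 0.89 ± 0.081 and 2.02 ± 0.092, and both means were highest at 2 h (12.20 and 11.07) and lower at 4 h (11.15 and 9.72). The glucose transporter gene Slc2a1 rose by 0.21 ± 0.060, from 13.01, 12.99 and 13.02 to 13.18, 13.25 and 13.22. It did not pass with only the 6 arrays (limma adjusted p = 0.088), without 2 h replicate 2 (0.0548) or without both narrow arrays (0.0829).

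The hexosamine pathway makes the sugar donor for protein glycosylation in a short chain of enzymes. Its entry and its last enzyme rose most, Gfpt2 by 2.84 ± 0.093 and Uap1 by 1.89 ± 0.075. Gfpt1, the other entry enzyme, rose by 0.35 ± 0.057, and the enzymes between them, Gnpnat1 (0.25 ± 0.092, limma adjusted p = 0.0594) and Pgm3 (0.24 ± 0.115, limma adjusted p = 0.171), did not pass. All of these genes had their highest mean at 4 h or 8 h, not at 2 h.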
